A study of Bos taurus with 2 samples.

Results

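The tight junction genes described here were CLDN1, CLDN3, CLDN4, CLDN5, CLDN7, CLDN8, OCLN, TJP1 and F11R. Their probes were chosen by name, as the gene probes of the array whose symbol in the files, or whose current RefSeq symbol, was 1 of these 9. This gave 20 of the 43653 gene probes, of which 17 were measured on both arrays, and all 9 genes had at least 1 measured probe among the 12244 genes measured in all. Mammary tissue of adult Chinese Holstein cows in late lactation was compared on 1 array labelled mastitis and 1 labelled normal, both read in 1 colour on the same slide, whose image name also lists samples LowRFI and HighRFI that are not analysed here. The methods give 3 cows per group, with tissue taken after slaughter, describe the hybridization of each specimen by itself, and do not say which cow stands behind either array. None of the cows had received recombinant somatotropin, and the cows with mastitis had been given antibiotics while the healthy cows had not, so that disease and treatment cannot be told apart. A single array per condition leaves every difference without a check by replicates, and p-values are not given.

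Tight junctions seal the gap between neighbouring epithelial cells at their apical side. Claudins form the strands of the seal and set which ions can pass, occludin and the adhesion molecule encoded by F11R lie in the same membrane contacts, and ZO-1, encoded by TJP1, ties the contacts to the actin cytoskeleton. In the lactating udder the seal keeps milk and blood apart, and its loosening in mastitis is known from the movement of salts and lactose between them.

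Signals were read as net signals, the spot brightness after subtraction of the mean of the negative control spots. A probe was counted as measured when on both arrays its net signal passed a background threshold (2.6 SD of the 153 negative controls over their mean, or 7.10 on the mastitis and 8.74 on the normal array) and its spot was found by the scanner software. For the log2 ratios the net signals were scaled to the 75th percentile of their own array (210 on the mastitis array, 128 on the normal array), and a gene's log2 ratio, mastitis over normal, is the mean over its measured probes. Over all measured genes the median log2 ratio was -0.15. Replicate spots of 40 probes, those measured on both arrays with every net signal above 0, gave a pooled SD of 0.16. The pooled SD between the probes of a gene was 0.45. Both are technical and leave out differences between cows. Milk genes bear on milk secretion and cannot by themselves check the mastitis label. All 6 measured of 7 milk secretion markers were lower by 2-fold or more on the mastitis array, and their summed scaled signal was 182 there against at least 9040 on the normal array, where 5 of their 21 probes had saturated pixels. No member probe had any on either array. The 7th, LALBA, was well above background on the normal array alone. In such bulk tissue fewer cells of a type and less RNA per cell cannot be told apart.

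The 9 genes did not share a direction. On the mastitis array 2 members, F11R and CLDN8, were lower by 2-fold or more, none was higher by as much, and 7 were within 2-fold. The shares of all measured genes past 2-fold were 9.13% on the lower side and 2.26% on the higher side. The median of the members, -0.12, was close to that of all genes, with 4 members below the latter and 5 above. Among 9 members this median is the ratio of TJP1, whose named probes were dim and whose sign was not stable. The member median stood above 0 with quantile normalization (0.25), spike-in scaling (0.12) and no scaling (0.60). The all-gene medians there were 0.01, 0.08 and 0.56. It was also above 0 with median scaling (0.03), no filter on dim probes (0.05) and the brightest probe (0.19). The same held with the unnamed TJP1 probes described below (0.21) and the deposited log2 table with its rows moved by 1 probe (0.23). Apart from that table as labelled, the other alternatives gave values below 0, down to -0.35 at a net signal of 50 or more. Relative to all genes the member median ran from -0.30, at a net signal of 50 or more, to 0.36, with the unnamed TJP1 probes. From the lowest to the highest the log2 ratios were F11R, CLDN8, CLDN7, CLDN3, TJP1, CLDN5, CLDN1, OCLN and CLDN4, a span of 1.76. The largest step between neighbours in this order was 0.38, less than the SD over probes of a gene.

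**Figure D1:**
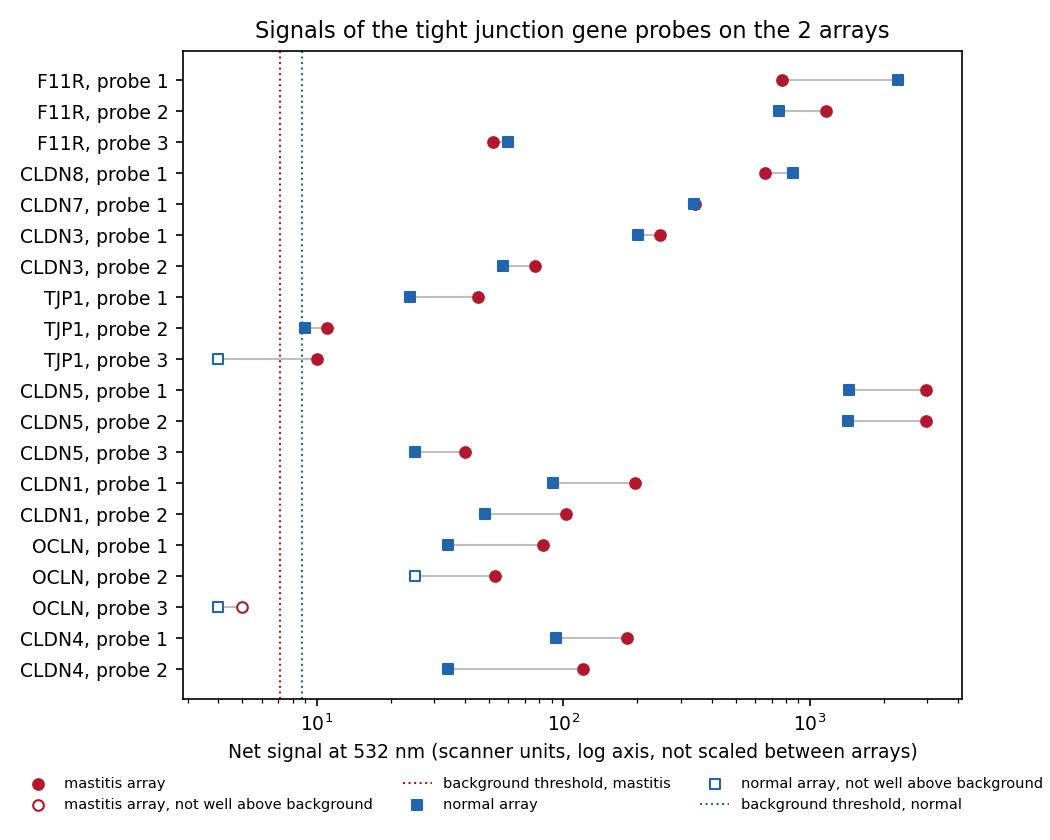
Net signal on the horizontal log axis, before any scaling, for the 20 probes of the 9 tight junction genes, with red circles for the mastitis array and blue squares for the normal array. Open symbols were not well above background and dotted lines mark the thresholds of 7.10 and 8.74. The normal array is the brighter at 2 of the 3 F11R probes and at CLDN8, while the mastitis array is the brighter at all other probes, that of CLDN7 by 343 against 339.

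Among the epithelial claudins of the 9 genes, CLDN8 and CLDN7 had the lowest ratios. CLDN8, which encodes a barrier claudin of tight epithelia such as the kidney collecting duct, gave 661 on the mastitis and 853 on the normal array as net signals from its only probe. After scaling this was 2.12-fold lower on the mastitis array, a log2 ratio of -1.08 that lay below those of 92.4% of all measured genes. CLDN8 was the sole member with an unscaled signal that was higher on the normal array at every probe. CLDN7, a claudin of the basolateral as well as the apical membrane, had near equal net signals of 343 and 339, also from 1 probe, and a log2 ratio of -0.70 after scaling. The ratio of CLDN8 sat just beyond the 2-fold line and came inside it under other scalings, with -0.93 for median scaling, -0.85 for scaling on spike-in probes and -0.89 with the normexp background correction.

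CLDN3 and CLDN4 are direct neighbours in the RefSeq annotation of the bovine genome (ARS-UCD2.0), with no gene listed between them, and encode closely related claudins of epithelial cells that both bind the enterotoxin of Clostridium perfringens. Their log2 ratios lay on opposite sides of the all-gene median. The brighter CLDN3 probe gave 246 (mastitis) and 201 (normal) and the dimmer 77 and 57, which gave log2 ratios of -0.42 and -0.28 and a gene mean of -0.35 (SD 0.10, 2 probes). CLDN4 had net signals of 181 and 94 at its brighter probe and of 120 and 34 at its dimmer probe. Its log2 ratios were 0.23 and 1.11, with a mean of 0.67 (SD 0.62, 2 probes), higher than in 94.1% of measured genes. The probes of CLDN4 thus disagreed on the size but not on the sign, and a span of 0.87 or more between probes was found in 11.9% of the 3758 genes with 2 measured probes. The genes differed by 1.02 in log2 ratio, a difference that does not depend on the scaling factor, and by 0.65 with the brightest probe of each. With the normexp correction CLDN4 stood at 0.29 and CLDN3 at -0.30. At a net signal of 50 or more, which leaves out the dimmer CLDN4 probe, they stood at 0.23 and -0.35.

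CLDN1, which encodes a claudin needed for the barrier of the skin, had the smallest span between probes among the members. The net signals were 196 on the mastitis and 91 on the normal array at the first probe and 103 and 48 at the second, and both gave a log2 ratio of 0.39 (SD 0.004). The gene was 1.31-fold higher on the mastitis array, within 2-fold, and it exceeded CLDN8 by 1.47 in log2 ratio. Apart from the deposited log2 table as labelled, its values under other processing ran from 0.17 with the normexp correction to 1.10 without scaling.

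CLDN5 differs from the others in that it is the main claudin of endothelial cells. A pair of its probes was bright and gave nearly the same signals, 2972 and 2947 on the mastitis array against 1440 and 1430 on the normal array, and whether they read the same stretch of transcript is not given in the sources used here. Their log2 ratios were both 0.33. Another probe with net signals of 40 and 25 gave -0.04, and the mean over the 3 probes was 0.21 (SD 0.21). Of 16 endothelial markers 15 were measured, all within 2-fold, with a median log2 ratio of 0.23 and a summed scaled signal of 81.2 on the mastitis and 77.0 on the normal array. FLT1 was not well above background on either array. The mean ratio of CLDN5 thus lay close to the median of these markers, which ran from -0.59 for MMRN2 to 0.87 for PLVAP. It lay no further from the median of the myoepithelial markers (0.22), so the closeness is not particular to endothelial genes. With the brightest probe of each gene, CLDN5 was at 0.33 and the endothelial marker median at 0.48. The part of endothelial cells in the ratio of CLDN5 was not tested.

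OCLN, which encodes occludin, rested on 1 measured probe with net signals of 83 on the mastitis and 34 on the normal array. Its log2 ratio of 0.57 was a 1.49-fold higher scaled signal. The next probe had 53 and 25, but its spot on the normal array was not found by the scanner software, and the last was not well above background on either, at 5 and 4. With spots that were not found kept, its log2 ratio was 0.47, and with no filter on dim probes 0.31. The normexp correction, whose offset compresses the ratios of dim probes, gave 0.11.

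TJP1, which encodes the scaffold protein ZO-1, had dim probes only under its own name. Of the 3 probes that carry its name, the brightest had net signals of 45 on the mastitis and 24 on the normal array (log2 ratio 0.19), the next 11 and 9 (log2 ratio -0.42), and the last 10 and 4, not well above background on the normal array. The mean of -0.12 (SD 0.44, 2 probes) had no stable sign. It lay below 0 in 6 and above 0 in 8 of the 14 alternatives in which the gene was measured. Those below 0 were normexp, at -0.32, and alternatives that kept or barely moved the value of -0.12. Outside the naming rule, 2 further probes carry no gene symbol but list a transcript that is also listed for a probe named TJP1, and the files describe the first of them as tight junction protein 1. They were chosen after their values were seen. Their net signals were 1206 and 461 at the first and 230 and 102 at the second, with log2 ratios of 0.67 and 0.46, and with both added TJP1 stood at 0.22.

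F11R, which encodes the junctional adhesion molecule JAM-A, had the lowest mean and the least settled one. Its probes gave 3 different answers. The first gave 771 on the mastitis array against 2275 on the normal one, a log2 ratio of -2.28 or 4.84-fold lower. The second had 1169 and 748, a log2 ratio of -0.07, and the last 52 and 60, a log2 ratio of -0.92. The mean was -1.09 (SD 1.11, 3 probes), and without the first probe it was -0.50, within 2-fold. A span of 2.21 or more was found in 1.73% of the 1676 genes with 3 measured probes, where the median span was 0.45. The spots around the first probe, within 5 columns and rows to each side, had a median log2 ratio of 0.05 over 76 measured spots, and around all 20 member spots these medians lay between -0.27 and 0.14. All 3 probes name the same RefSeq transcript, and where each lies on it is not given in the sources used here.

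**Figure D2:**
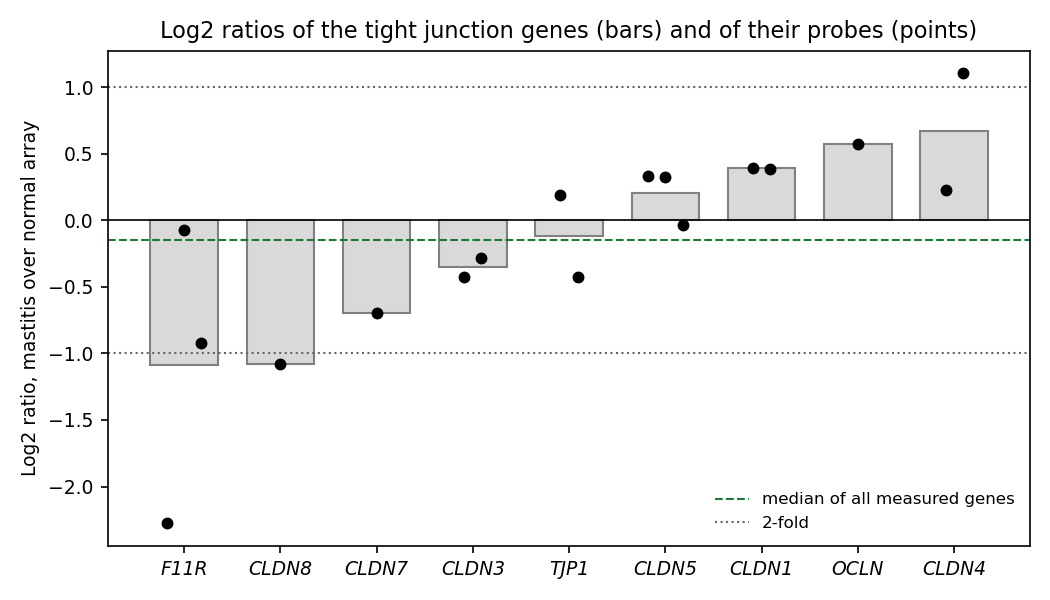
Log2 ratio, mastitis over normal array, on the vertical axis for the 9 tight junction genes, ordered by the mean over measured probes (bars), with each measured probe as a point. A dashed line gives the all-gene median (-0.15) and dotted lines mark 2-fold. The points of F11R spread from -2.28 to -0.07, while those of CLDN1 coincide at 0.39.

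Other genes of the tight junction, from a list of 54 names, were mostly within 2-fold as well. Of 48 on the array 39 were measured, of which 3 lay past 2-fold on the lower side, 2 on the higher side and 34 within it. Their median log2 ratio was -0.34, against -0.15 for all measured genes. Of all measured genes 9.13% lay past 2-fold on the lower side and 2.26% on the higher side, so most of these were within 2-fold too. CLDN6 gave 11 on the mastitis and 15 on the normal array, close to the background threshold, and a log2 ratio of -1.16. CRB3, which encodes an apical polarity protein, had 14 and 27 and a log2 ratio of -1.66. PARD6G, of the PAR polarity complex, had a mean of -2.81 from a pair of probes that pointed in opposite directions, with 14 and 739 at one and 55 and 19 at the other. On the higher side JAM3, a relative of F11R found in endothelial and other cells, showed net signals of 424 and 125 at one probe and 179 and 56 at another, and a log2 ratio of 1.01 (SD 0.06, 2 probes). ILDR2, which encodes a protein of tricellular contacts, had 76 and 20 and a log2 ratio of 1.21. With the normexp correction PARD6G alone of these 5 was past 2-fold.

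By role, the 8 measured of 16 other claudins had a median of -0.42, with CLDN6 alone past 2-fold. CLDN16, CLDN17, CLDN18, CLDN22 and CLDN24 did not pass the background threshold on either array. The 10 measured of 11 other membrane proteins had a median of -0.26, with 1 lower and 2 higher. The 21 measured of 27 plaque and polarity genes had a median of -0.32, with 1 lower and none higher. The 13 measured genes of adherens junctions and desmosomes, the contacts just below the tight junction, were all within 2-fold, with a median of -0.25 and a range from -0.82 to 0.42. Without scaling of the arrays, which adds 0.71 to every log2 ratio, the medians of all these groups were above 0, and that of all genes was 0.56. Relative to all genes, with or without scaling, they were -0.27 (other claudins), -0.11 (membrane), -0.17 (plaque and polarity) and -0.10 (adherens junctions and desmosomes). Apart from the deposited table as labelled, their highest relative values under other processing were -0.02, 0.08, 0.002 and 0.17.

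**Figure D3:**
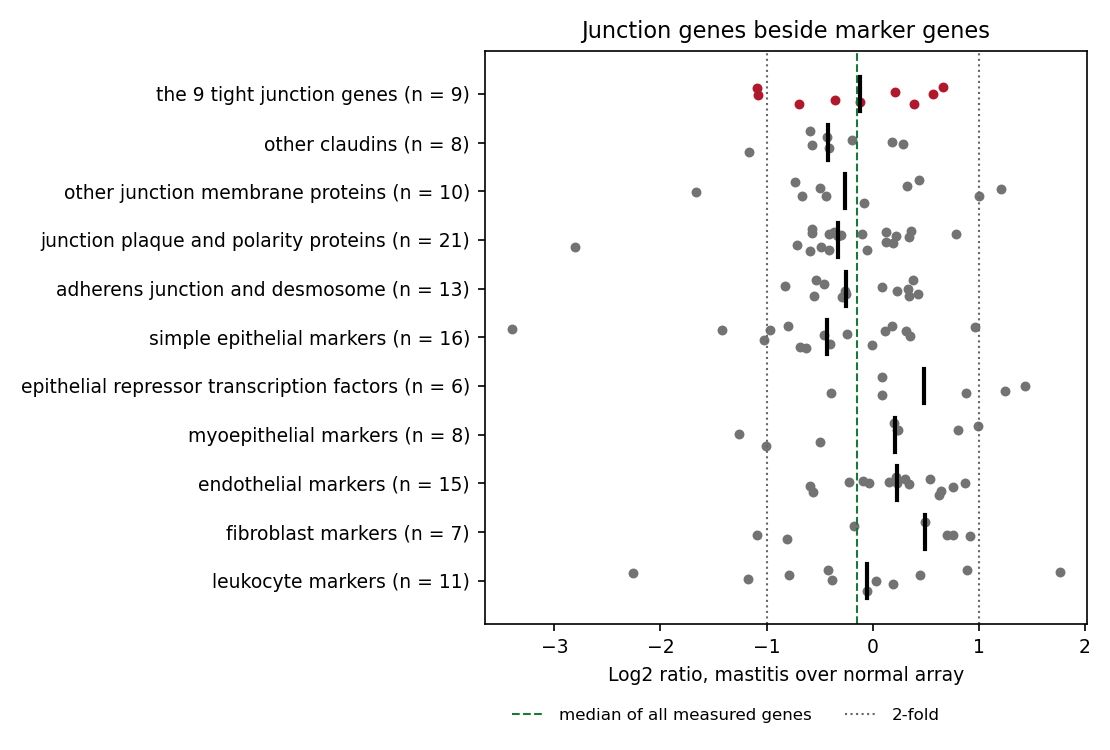
Log2 ratio, mastitis over normal array, on the horizontal axis for each measured gene (points, spread vertically for legibility) of the tight junction genes (red, top row) and of 10 further lists, with list medians as black bars. A dashed line gives the all-gene median (-0.15) and dotted lines mark 2-fold. The members reach from -1.09 to 0.67 around a median of -0.12, and the median of the simple epithelial markers lies at -0.43.

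Markers of the cell types in the tissue gave values to set beside these. All 16 markers of simple epithelium were measured, 3 of them past 2-fold on the lower side and none on the higher side. Their median was -0.43, or 0.28 without scaling, and their summed scaled signal was 283 on the mastitis and 429 on the normal array. MUC1, the apical mucin of milk-secreting cells, was the lowest at -3.40 (SD 1.03, 5 probes), or -2.15 with normexp and -4.44 with its brightest probe, and KRT18, a keratin of simple epithelium, the highest at 0.97 (SD 0.13, 3 probes). Of 6 transcription factor genes whose products are known to repress epithelial junction genes, 2 lay past 2-fold on the higher side and none on the lower. The shares of all measured genes were 2.26% and 9.13%. Of the 6, 5 lay above 0 and 1 below, and the lowest were SNAI1 at -0.39 and ZEB2 at 0.08. TWIST1 gave 203 on the mastitis and 52 on the normal array (log2 ratio 1.25) and TWIST2 93 and 21 (log2 ratio 1.43), each from 1 probe, and both were within 2-fold with the normexp correction. The 8 measured myoepithelial markers had a median of 0.22 and summed scaled signals of 89.3 and 88.6, with 2 past 2-fold on the lower side, none on the higher side and TP63 not well above background. The 7 fibroblast markers had a median of 0.49 and sums of 276 and 219, with 1 past 2-fold on the lower side. The 11 measured leukocyte markers had a median of -0.06 and sums of 53.1 and 41.7, with 2 past 2-fold on the lower side and 1 on the higher, from CSF3R, a neutrophil receptor gene, at -2.26 to CD163, a macrophage receptor gene, at 1.76. The part of these cells in the ratios of the junction genes was not tested.

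**Figure D4:**
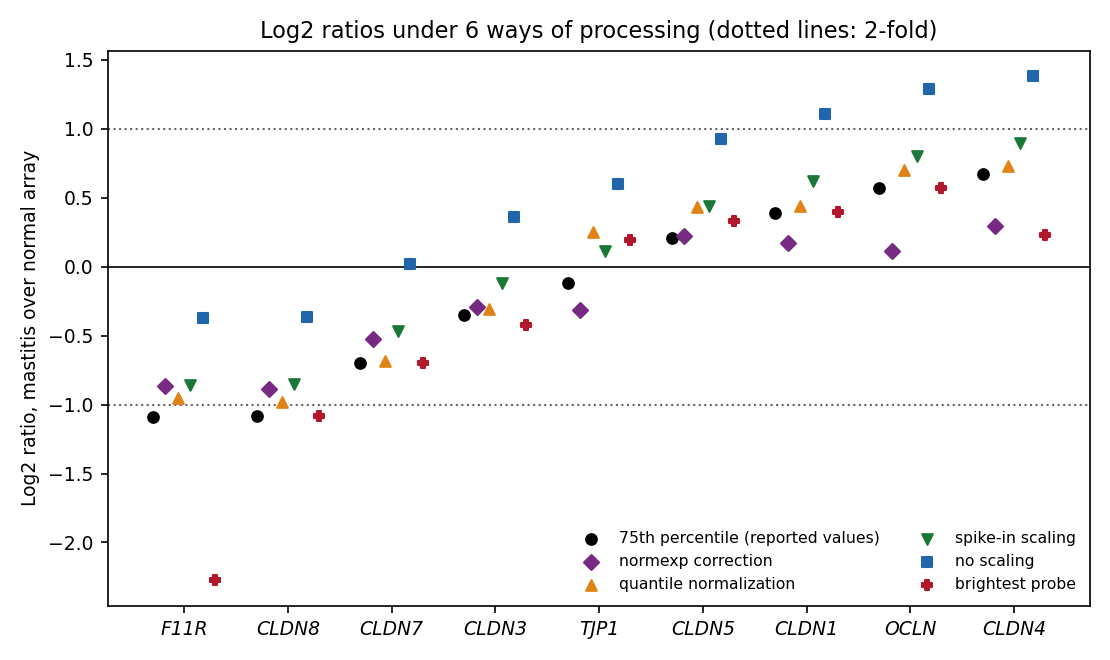
Log2 ratio, mastitis over normal array, on the vertical axis for the 9 tight junction genes under 6 ways of processing (symbols), with dotted lines at 2-fold. F11R and CLDN8 are the lowest genes with each symbol, CLDN4 is the highest with all but the brightest-probe symbol, where OCLN is, and TJP1 lies on both sides of 0.

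Apart from the deposited table as labelled, 16 alternatives were run, several of which alter few members or none. The order of the members could not change in 5 of them, which keep every difference between members. Among the other 11, F11R and CLDN8 were the lowest pair in 10 and CLDN4 was the highest in 9. Some of those 11 left these genes at their reported values, such as keeping spots not found or adding the unnamed TJP1 probes. The tallies are therefore not independent checks. CLDN8 and F11R stayed below 0 and CLDN1, CLDN4 and CLDN5 above 0 in all 16, and OCLN stayed above 0 in all 15 in which it was measured. CLDN3 and CLDN7 were below 0 in 15 of 16 and stood at 0.36 and 0.02 without scaling. The count of members lower by 2-fold or more was less steady, and the means of both genes sat close to that line. It was 0 with normexp, where 3.27% of all genes passed, 0 with quantile normalization (6.08%), 0 with median scaling (6.69%), 0 with spike-in scaling (5.96%) and 0 without scaling (2.64%). It was 1 with the median over probes (8.98% of all genes), which left CLDN8, and 1 without the lowest F11R probe (9.12%). At 3-fold it was 0, against 3.3% of all genes, with 0 on the higher side as well (0.547%). At 1.5-fold 3 members, F11R, CLDN8 and CLDN7, were lower, against 21.5% of all genes. On the higher side 3 members, CLDN1, OCLN and CLDN4, passed 2-fold without scaling, where 20.0% of all genes did, and 1, CLDN4, was 1.5-fold higher with the scaling used throughout, against 7.66%. The deposited table as labelled, whose rows are displaced, gave 0 members lower (11.5% of all genes) and 1 higher (12.3%).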

How the data were processed

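One array of mastitis and one of normal mammary tissue were analysed. Per the file headers, an Agilent bovine oligonucleotide array was read with GenePix Pro 6.1 at 532 nm; the authors deposited each spot's intensity less the mean of the negative controls, unscaled. The authors also deposited a score of signal over noise, the percent of pixels at saturation and a flag. Agilent Feature Extraction stands in the submitters' processing notes and an Affymetrix chip in the methods, and the files match neither. The deposited log2 table has no stated method. Its order followed the scanner signals with a Spearman correlation of 0.10 as labelled and 1.00 with rows moved by 1 probe, so it served as an alternative only.

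Spots of a probe were averaged. Probes were named by RefSeq accession (26743), symbol (5971) or synonym (150). The files' own name was kept for 1652 probes, and 9137 were unnamed. Alternatives used limma 3.58.1 in R 4.3.3 (normexp, offset 50; quantile normalization), and the rest Python 3.11.15 with pandas 2.3.3 and numpy 2.4.6. The computation of the ratios was run on simulated data with spot noise alone. That simulation held no disagreement between probes of a gene and no differences between cows. Members and gene lists were chosen with earlier results of these data known. Named genes were the members and, per list, at most the 2 highest and 2 lowest, besides the 5 claudins below background and the markers below background or on 1 array alone, named after their values were seen. No sequences are printed, since the sources used here gave none.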

Additional observations from a re-analysis of the deposited data

How the results depend on the processing

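No paired analysis was possible because each condition has 1 array, and for the same reason no replicate could be left out. Without scaling, the members had 0 lower and 3 higher by 2-fold or more and a median of 0.60. The other tight junction genes had 1 lower, 8 higher and a median of 0.38. Of all genes 2.64% were lower and 20.0% higher without scaling, with a median of 0.56. With the deposited table as labelled, the members had 0 lower, 1 higher and a median of 0.42, and the other tight junction genes 8 higher and a median of 0.29. That table also turned the sign of CLDN8 (0.60), F11R (0.80), CLDN6 (0.59), PARD6G (0.32) and MUC1 (0.81), and with its rows moved by 1 probe CLDN8 stood at -1.13 and F11R at -1.05. The members had 0 lower with normexp, quantile normalization, median scaling, spike-in scaling or a 3-fold threshold, 1 lower with the median over probes or without the lowest F11R probe, and 3 lower and 1 higher at 1.5-fold. The other tight junction genes had 1 lower and 0 higher with normexp, where 3.27% and 0.76% of all genes were. They had 1 higher with the mean of pixels (2.72% of all genes) or when dim probes were not filtered (1.32%). At a net signal of 50 or more they had 0 lower (6.16%) and 1 higher (2.37%). Apart from the displaced rows of the deposited table and the fixed amount that a scaling factor adds to every log2 ratio, the cause of these moves was not tested. Over all genes 1118 were lower and 277 higher by 2-fold or more, against 400 and 93 with normexp, 730 and 541 with spike-in scaling and 323 and 2449 without scaling. Spike-in scaling adds 0.23 to every log2 ratio and no scaling 0.71, so each direction is relative to the scaling. The settings without the lowest F11R probe, with the unnamed TJP1 probes, with the mean of pixels and with the moved table were chosen after the data were seen. Precision is limited by the number of arrays and by dim probes, since 6 of the 17 measured member probes had a net signal below 50 on the normal array.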
